A study of Mus musculus with 4 samples.

Results

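Hepatocyte growth factor (HGF), its receptor and the proteins that switch the factor on or hold it off were followed on the arrays through every probe annotated to Hgf, Met, Hgfac, St14, Spint1 or Spint2. These 6 genes have 8 probes among the 55681 probes of the array that are not controls. RNA came from C2C12, a mouse line of myoblasts, which proliferate in rich medium and fuse into myotubes when it is withdrawn. The cells were transiently transfected with an siRNA against Fxr1, which encodes an RNA-binding protein of muscle, or with a control siRNA, and the conditions are called siFxr1 and siControl. Each condition was measured in 2 independent experiments, giving 4 arrays of 1 colour (Cy3), and the pair of samples of an experiment shared a slide. Cells of all groups are the same unmodified line and differ only in the siRNA. The knockdown is transient and on these arrays comes from a single siRNA sequence, which targets exon 14 of Fxr1, an exon that every Fxr1 transcript carries.

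siFxr1 siRNA: gcaauccauacagcuuacuugaua

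HGF is secreted as a single inactive chain that trypsin-like serine proteases cut into an active form, and the active form binds Met, a receptor tyrosine kinase. HGF activator (encoded by Hgfac) and matriptase (St14) are such proteases, and the Kunitz-type inhibitors HAI-1 (Spint1) and HAI-2 (Spint2) sit on the membrane and block them. In muscle, HGF stored in the matrix is known as a signal that brings quiescent satellite cells, the stem cells of the fibre, into the cell cycle, and it is also known to hold back differentiation of myoblasts.

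Values are normalized log2 signals, that is log2 of the background-corrected brightness after quantile normalization between the arrays, so a difference of 1 is a doubling. A call needed a B value (the log odds of a change in limma) above 0, or an adjusted p below 0.05 by the method of Benjamini and Hochberg. By either rule 0% of the 55681 probes were called, whereas 2764 had an unadjusted p under 0.05, so the differences below are given as measured and none passed the test. An exact two-sided permutation test of a single value cannot go below p = 0.333 with 2 arrays against 2. The targeted Fxr1 transcript had signals of 13.84 and 13.71 in siControl and of 10.15 and 10.77 in siFxr1 on its brighter probe. Its log2 fold change was −3.31 (SE 0.29), and its other probe gave −3.61 (SE 0.28). Neither Fxr1 probe was called (limma adjusted p = 0.950 and B = −4.33 for each). A missing call in this fit therefore does not show that a transcript was unchanged. Between 45.4% and 52.9% of probes were well above background on an array, by the mark of the scanner software, and 0 spots were saturated. RNA integrity was scored 9 in all samples except siFxr1 of experiment 1, which had 8. Of 6 myoblast markers, 5 had a signal well above background on each array and Myf5 on none. Bulk RNA cannot tell a change in the number of expressing cells from a change of RNA per cell.

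Of the 8 probes, 5 (Hgf, Met, both Spint1 probes and the probe nearer the 5′ end of Spint2) had a signal well above background on all 4 arrays. The 3 others, of Hgfac, St14 and the 3′ part of Spint2, did not pass the filter that asks for both arrays of at least 1 condition. Thus the ligand, the receptor and both inhibitors had a signal in these myoblasts, whereas neither activating protease did on both arrays of a condition. Both siFxr1 arrays were above both siControl arrays on 3 of the 5 probes, those of Hgf and Spint1, against 15.9% of the 25523 probes that passed the same filter. A difference of at least 2-fold upward in both experiments was seen for 1 of the 5, that of Hgf, against 1.94% of the 25523. The probes of Spint1 report on the same gene and do not count as separate evidence.

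**Figure D1:**
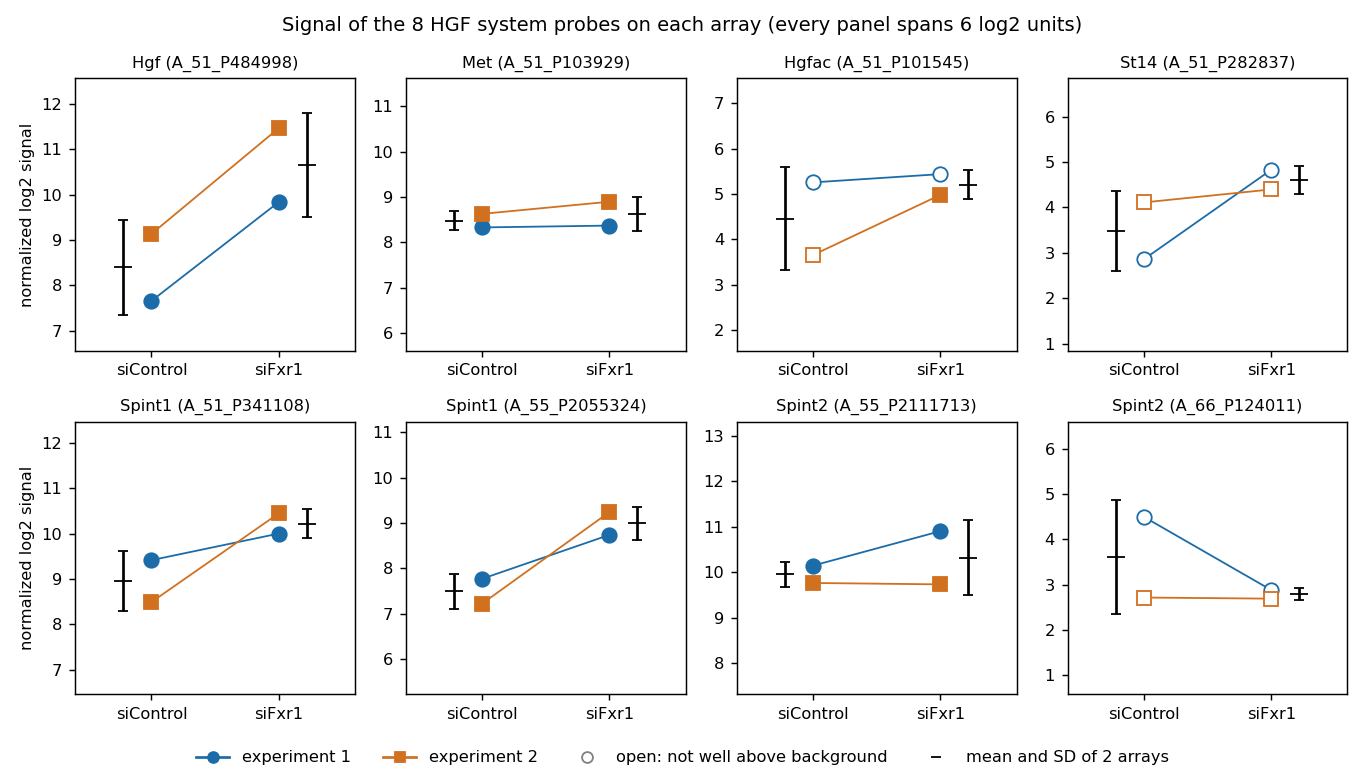
Normalized log2 signal of each probe in siControl and siFxr1, with a line joining the samples of an experiment, open symbols for signals not well above background, and the mean and SD of the 2 arrays of a condition in black. Every vertical axis spans 6 log2 units but starts at its own level, since levels of different probes are not comparable. For Hgf siFxr1 lies above siControl by similar steps in both experiments (2.18 and 2.33), whereas the lines of Met are nearly flat (0.04 and 0.27).

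Hgf, the ligand, was the gene of the system with the largest difference between the conditions. Its only probe (A_51_P484998, NM_010427, chr5:16124829-16124888 of mm9, plus strand) had signals of 7.66 and 9.13 in siControl and of 9.83 and 11.46 in siFxr1 of experiments 1 and 2. The siFxr1 arrays were thus the highest, yet the lower of them was nearer to the siControl array of experiment 2 than to its own siFxr1 partner. The condition means, siFxr1 first, were 10.65 ± 1.15 and 8.40 ± 1.04 (SD, n = 2 each), with a log2 fold change of 2.25 (SE 0.87), or 4.77-fold (limma adjusted p = 0.975, B = −4.45). Within an experiment, the difference was 4.52-fold in experiment 1 and 5.03-fold in experiment 2. Among 19109 genes taken by their brightest probe, 0.56% had a larger log2 fold change. Hgf is one of the transcripts that the study itself picked from these arrays, so its place is not independent evidence. The study selected transcripts by their B value in limma and reports Hgf as significantly higher on these arrays. In the main fit here Hgf was not called by its B value, so the calls differ. The reason for this difference was not tested. The study also reports higher Hgf by quantitative PCR, with this siRNA and with a second siRNA against Fxr1.

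In both conditions the signal of Hgf was also lower in experiment 1 than in experiment 2. Experiment 1 was below experiment 2 by 1.63 log2 units in siFxr1 and by 1.48 in siControl, and the fitted difference of experiment 1 minus experiment 2 was −1.55 (SE 0.20, limma adjusted p = 0.114, B = −1.002), where 0% of all probes had an adjusted p under 0.05 and 1.19% a B value above 0. With the dim probes left out, the adjusted p of this difference was 0.0127, in a fit where 17.0% of 25540 probes were below 0.05. Experiment and slide cannot be told apart. Of the other probes of the system, that of Spint2 was higher in experiment 1 by 0.78 and that of Met lower by 0.41, with limma adjusted p values of 0.302 and 0.406, and the Spint1 probes differed by 0.24 and 0.02.

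Since the samples of an experiment were handled on 1 slide, Hgf was also fitted with the experiment as a replicate block. The log2 fold change stays at 2.25 by construction, the SE was 0.197 and the call was not made (limma adjusted p = 0.535, B = −2.40). When the block was joined with the filter on dim probes, the adjusted p of Hgf was 0.0304 and its B value 2.36, in a fit that gave a B value above 0 to 1.39% and an adjusted p under 0.05 to 1.10% of 25540 probes. The call on Hgf thus depends on the block together with the filter or with another background correction. In the fit with block and filter, both Fxr1 probes were called too (limma adjusted p = 0.0173 and 0.0146, B = 3.40 and 4.27).

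For quantitative PCR of Hgf the study designed the following primers, which are shown because the PCR measured Hgf apart from the arrays. Their place on the transcript relative to the array probe was not examined. The PCR values were not analysed here.

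Hgf forward primer: actcaccaccctgtgacctc

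Hgf reverse primer: ctcctggaaacccagaacaa

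Met, which encodes the receptor of HGF, had nearly the same signal in both conditions. Its probe lies in the array's annotation at chr6:17503299-17503358 of mm9 (A_51_P103929, NM_008591, plus strand), and its sequence is shown because it is the only one of the system that was spotted 10 times on each array, so that its spot noise can be read.

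Met probe: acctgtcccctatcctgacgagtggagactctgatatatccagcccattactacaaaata

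The averaged signals of Met were 8.33 and 8.63 in siControl and 8.37 and 8.90 in siFxr1 of experiments 1 and 2. The siFxr1 array of experiment 1 lay between the siControl arrays, so the conditions overlapped. siFxr1 exceeded siControl by 0.15 log2 units (SE 0.28, limma adjusted p = 0.976), or 1.11-fold, and this turned to −0.11 without the siFxr1 array of experiment 2. The SD between spots of 1 array lay between 0.0501 and 0.151, on 9 or 10 spots. In experiment 1 the spots of siFxr1 (8.10 to 8.64) spanned those of siControl (8.24 to 8.41), whereas in experiment 2 the 9 spots of siFxr1 (8.82 to 9.00) all lay above the 9 of siControl (8.47 to 8.78). Spots of an array share 1 RNA sample and measure the spotting and scanning error only.

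**Figure D2:**
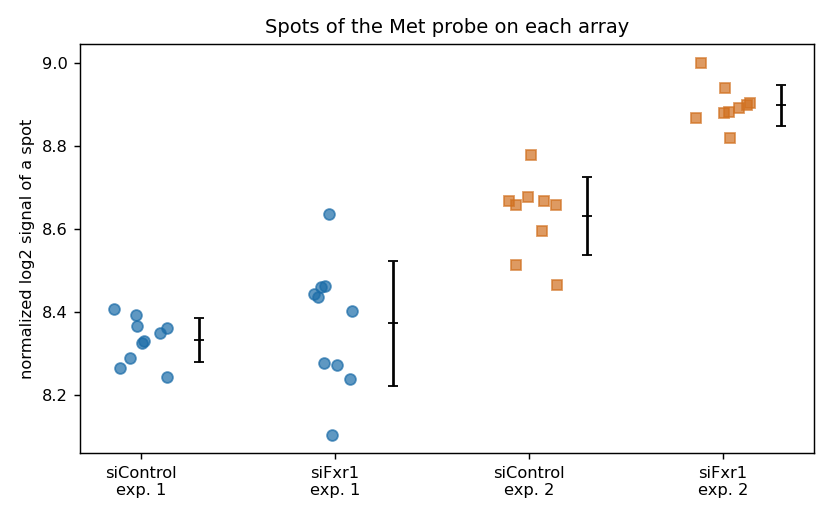
Normalized log2 signal of each spot of the Met probe on the 4 arrays, with the mean and SD over spots in black. The spots of siControl and siFxr1 intermingle in experiment 1 and separate by 0.27 on average in experiment 2, and both arrays of experiment 2 have higher means than those of experiment 1.

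Spint1, which encodes the membrane-bound inhibitor HAI-1 of HGF activator and matriptase, was higher in siFxr1 on both of its probes. The brighter probe (A_51_P341108, NM_016907, chr2:119074929-119074988 of mm9, plus strand) had signals of 9.42 and 8.49 in siControl and of 10.003 and 10.45 in siFxr1. The conditions did not overlap, and the difference was smaller in experiment 1 (0.59 log2 units) than in experiment 2 (1.95). The means were 10.23 ± 0.31 (SD, n = 2) and 8.96 ± 0.65 (SD, n = 2), so the condition difference was 1.27 log2 units (SE 0.43, limma adjusted p = 0.975, B = −4.43).

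The other Spint1 probe (A_55_P2055324, same transcript) lies directly beside it at chr2:119074872-119074931 and shares 3 bases of its coordinates. Its signals were 7.77 and 7.22 in siControl and 8.74 and 9.24 in siFxr1, again without overlap. Its log2 fold change came to 1.49 (SE 0.33, limma adjusted p = 0.967, B = −4.38), with 1.95-fold in experiment 1 and 4.05-fold in experiment 2. Neighbouring probes of 1 transcript thus gave the same direction in both experiments and the same order of the experiments, and whether the experiments differ in this response could not be tested with 1 pair of arrays each. With the block and the filter together, the B values were −2.87 and −1.43 and Spint1 was not called. HAI-1 is best known from epithelia. Of 7 epithelial markers, 2 had a signal well above background on each array and Epcam, Cdh1 and Cldn4 on none, and the mean log2 signal of the list was higher in siFxr1 by 0.0957 in experiment 1 (4.90 to 5.001) and by 0.38 in experiment 2 (4.40 to 4.78). Krt8, a keratin, had signals of 5.27 and 5.37 in siControl, of which the first was not well above background, and of 5.96 and 6.23 in siFxr1. Krt18, its partner keratin, had 6.09 and 2.85 in siControl, of which the second was not well above background, and 7.71 and 5.22 in siFxr1. The differences of Krt18, 1.62 and 2.38, were the largest of the list and weigh most in the list's mean. That mean also takes in signals not well above background. Krt8 and Krt18 were thus higher in siFxr1 in each experiment, like Spint1. The 2 markers well above background on each array were Krt19 and Cldn7. Krt19 was lower in siFxr1 in each experiment (−1.19 and −0.32), and Cldn7 differed by 0.27 and −0.04. The part of these markers in the Spint1 difference was not tested.

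Spint2, which encodes the related inhibitor HAI-2, had a signal on 1 of its 2 probes. The probe annotated nearer to the 5′ end (A_55_P2111713, NM_001082548, chr7:30066532-30066591 of mm9, minus strand) is shown because it is the one that gave a level for HAI-2.

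Spint2 5′ probe: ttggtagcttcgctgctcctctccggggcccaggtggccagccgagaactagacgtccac

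This probe had signals of 10.14 and 9.76 in siControl and of 10.90 and 9.73 in siFxr1. The conditions overlapped, since siFxr1 was the highest array in experiment 1 and the lowest in experiment 2. The difference was 0.76 in experiment 1 and −0.03 in experiment 2, their mean 0.36 (SE 0.50, limma adjusted p = 0.975), and the value without the siFxr1 array of experiment 1 was −0.22. The probe annotated to the 3′ part (A_66_P124011, NM_011464, chr7:30041332-30041381) had signals of 4.50 and 2.72 in siControl and of 2.88 and 2.69 in siFxr1. None was well above background, so no fold change is given for it and the disagreement of the probes was not resolved.

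The activating proteases gave little signal. Hgfac encodes HGF activator, a trypsin-like protease of the blood that the liver secretes. Its probe (A_51_P101545, NM_019447, chr5:35390807-35390866 of mm9, plus strand) is shown because it covers the catalytic serine of the protease, and the capitals mark the codons of that motif.

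Hgfac probe: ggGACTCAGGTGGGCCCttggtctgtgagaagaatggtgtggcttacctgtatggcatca

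Hgfac had signals of 5.26 and 3.66 in siControl and of 5.44 and 4.98 in siFxr1. Only the siFxr1 array of experiment 2 was well above background, and the conditions overlapped. With 1 of 4 arrays measured, no fold change is given. St14, which encodes the membrane-bound protease matriptase (A_51_P282837, NM_011176, chr9:30897249-30897308 of mm9, minus strand), was not well above background on any array. Its listed signals were 2.86 and 4.11 in siControl and 4.83 and 4.40 in siFxr1, and no fold change is given.

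Around these genes, a list of 40 further genes of the HGF pathway was followed in 7 roles, with the brightest probe for each gene. Of the 40, 31 passed the filter, and all 31 were well above background on every array. None of them was called (0 by B value and 0 by adjusted p, as for all probes). In siFxr1, 8 of the 31 (25.8%) were higher without overlap, against 16.5% of the 19109 genes, and 2 (6.45%) were lower without overlap, against 14.2%. At least 2-fold in both experiments were 2 upward (Plau and Sdc1, 6.45% against 2.11%) and 1 downward (Adam17, 3.23% against 1.48%). The median log2 fold change of the 31 was 0.15, with a range of −1.30 to 1.34, and that of all 19109 genes was 0.03.

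**Figure D3:**
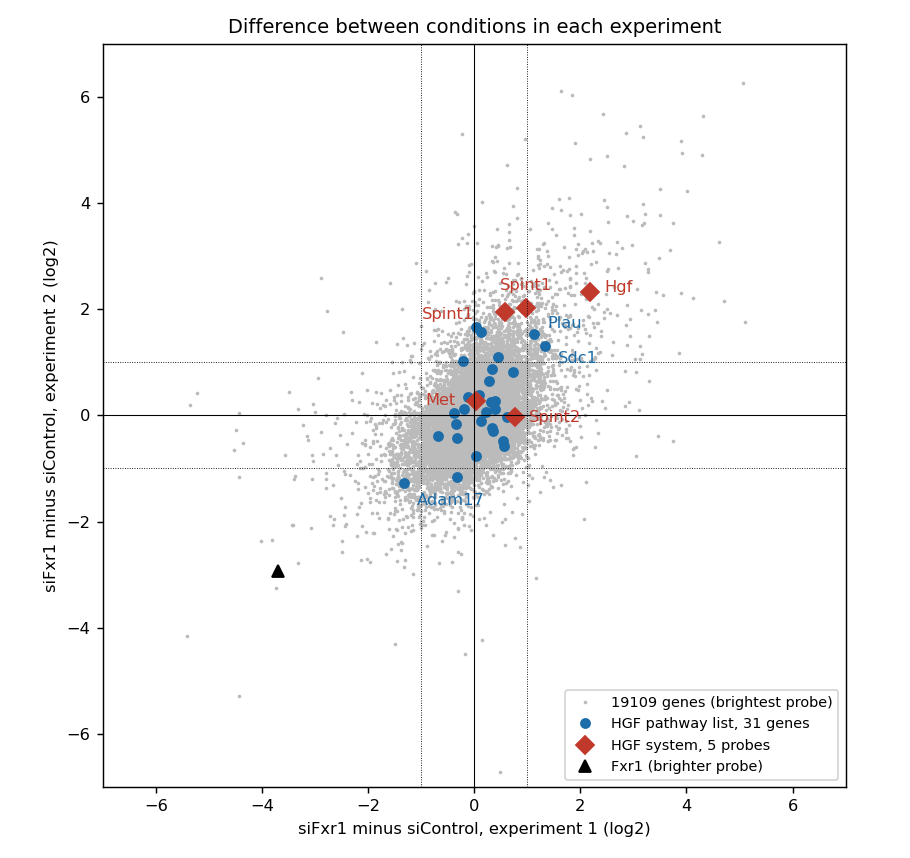
Difference of siFxr1 minus siControl in log2 units in experiment 1 (horizontal) and experiment 2 (vertical) for 19109 genes in grey, the 31 genes of the HGF pathway list in blue, the 5 probes of the HGF system in red and the brighter Fxr1 probe as a triangle, with dotted lines at 2-fold. Hgf lies beyond the dotted lines on both axes (2.18 and 2.33), the Spint1 probes pass the horizontal line only (1.95 and 2.02 in experiment 2), and Met and Spint2 lie within the grey cloud.

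Among the activators of the list, Plau encodes urokinase, a plasminogen activator that can also cut pro-HGF. Its signals were 9.93 and 7.20 in siControl and 11.07 and 8.75 in siFxr1. It was higher in siFxr1 within each experiment, by 1.13 and 1.54, but the experiments lay so far apart that the conditions overlapped, and the log2 fold change came to 1.34 (SE 1.41, limma adjusted p = 0.975). Plat, the tissue-type plasminogen activator, had a log2 fold change of 0.29. The other 5 activators of the list (Hpn, Plg, F12, Klkb1 and F11), most of them known as products of the liver, were not well above background on any array.

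The co-receptors and matrix partners of Met and HGF had the highest median among the roles with at least 5 genes past the filter, 0.85. Sdc1 encodes syndecan-1, a heparan sulfate proteoglycan of the cell surface, and HGF binds to heparan sulfate. Its signals were 12.72 and 13.01 in siControl and 14.05 and 14.32 in siFxr1. The conditions were far apart for their spread, with differences of 1.33 and 1.30, and the log2 fold change came to 1.32 (SE 0.21, limma adjusted p = 0.950). Dcn (decorin, a small matrix proteoglycan that binds Met) had a log2 fold change of 1.27 from 0.60 and 1.94 in the experiments. Cd44, a hyaluronan receptor that can act with Met, had one of 0.77. Both were without overlap. Another Cd44 probe past the filter had a log2 fold change of 1.09. Itgb4, an integrin chain whose value is the median of the role, was at 0.85, from 0.03 and 1.66 in experiments 1 and 2. Plxnb1, a semaphorin receptor that can pair with Met, was at −0.74. For Itgb4 and for Plxnb1 the conditions overlapped.

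Adaptors and effectors that carry the signal inside the cell were near 0 when averaged over the experiments. The 10 of 12 genes that passed the filter had a median log2 fold change of 0.00 and a range of −0.36 to 0.47. For some of them the average joins opposite or unequal differences of experiments 1 and 2. Shc1 had 0.54 and −0.49, Pik3r1 0.56 and −0.57, and Plcg1 0.04 and −0.77. Ptpn11, the phosphatase SHP2, had the largest log2 fold change of the role at 0.47, with signals of 14.93 and 13.93 in siControl and of 15.20 and 14.58 in siFxr1, which overlap. Gab1, the docking protein of Met, was at 0.14 and Grb2, an adaptor of receptor tyrosine kinases, at 0.01. Another Grb2 probe past the filter was at −0.36.

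Of the 7 genes for shedding and turnover of the receptor, Adam17 had the largest difference. It encodes a membrane metalloprotease that cuts off extracellular domains, that of Met among them. The brighter probe (A_55_P2128188) had signals of 7.45 and 6.82 in siControl and of 6.13 and 5.55 in siFxr1. The conditions did not overlap, and the log2 fold change came to −1.30 (SE 0.37, limma adjusted p = 0.975). A further Adam17 probe (A_55_P1999097) shares 52 bases of its coordinates with the brighter one and is no separate check. Its difference was −0.43 in experiment 1, and in experiment 2 its siFxr1 array was not well above background, so no value is given there. Adam10, a related protease, was at 0.29.

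Mst1, which encodes a ligand related to HGF, had signals of 6.32 and 6.79 in siControl and of 6.45 and 8.36 in siFxr1, where the siFxr1 array of experiment 2 stood apart. Its difference was 0.85 in log2 units, from 0.13 in the first experiment and 1.57 in the second. A further Mst1 probe overlaps the first in its coordinates and is no separate check. That probe gave 0.74, from −0.09 in the first experiment and 1.57 in the second. Mst1r, the gene of the receptor of Mst1, was well above background on the siFxr1 array of experiment 2 alone. Of the genes that act upstream of HGF in satellite cells, Nos1, a nitric oxide synthase, had the largest difference at −0.54, with overlap. The satellite-cell factors Pax7 and Pax3 were at 0.33 and −0.38, each without overlap and each less than 2-fold.

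**Figure D4:**
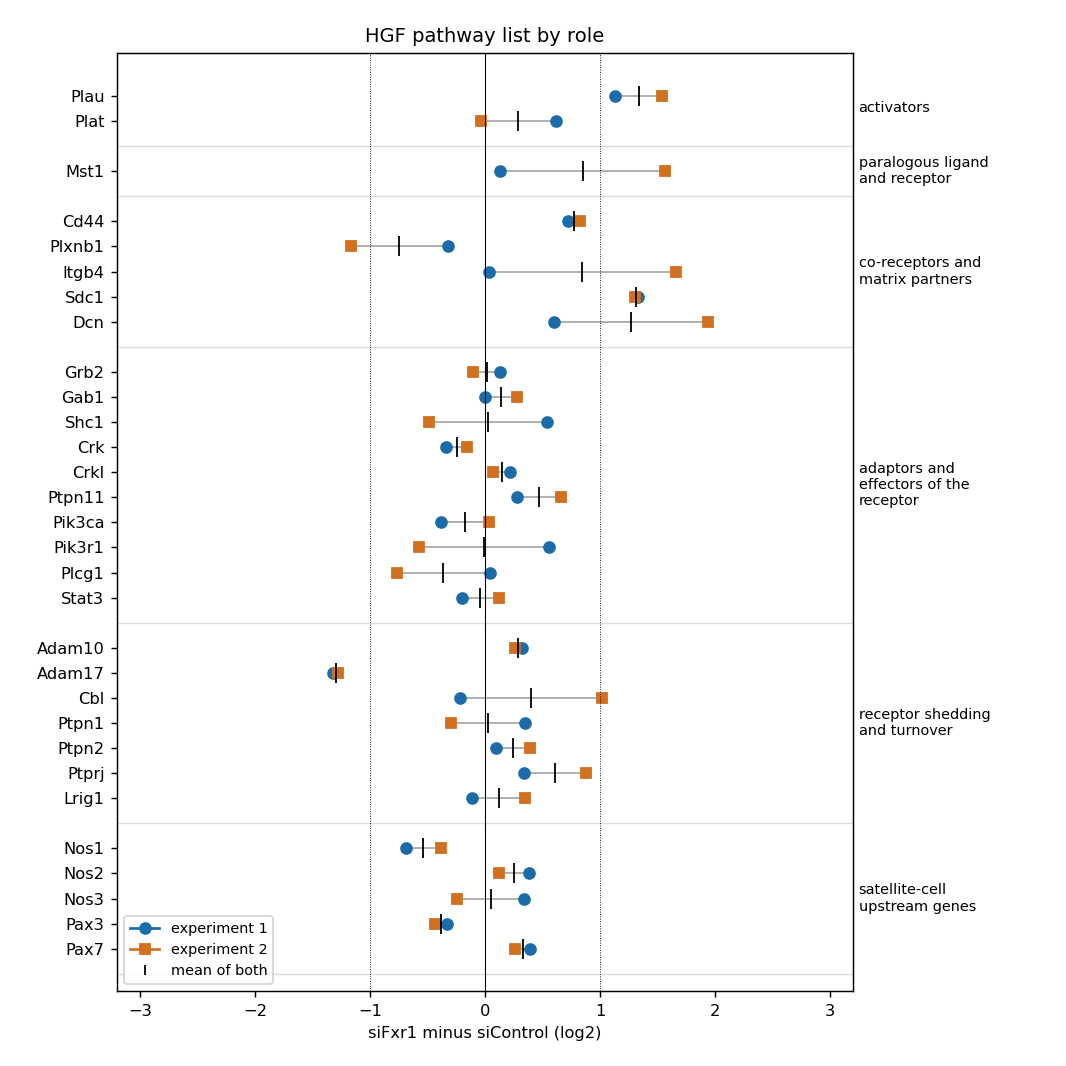
Difference of siFxr1 minus siControl in log2 units for 30 genes of the HGF pathway list past the filter, ordered by role, with circles for experiment 1, squares for experiment 2, black ticks for their mean and dotted lines at 2-fold. Plau and Sdc1 lie right of the upper dotted line in both experiments and Adam17 left of the lower one, while the adaptors and effectors scatter about 0.

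Patterns over the 4 arrays most like that of Hgf were sought among 17798 genes with a signal well above background on each array. Each log2 signal was set relative to its probe's own mean, and the likeness is the root mean square difference over the 4 arrays, for which the median gene had 1.41. The 5 nearest were Ptpn7 (0.205), Slco1a5 (0.273), Onecut2 (0.274), 1190003J15Rik (0.305) and a transcript named in the array's annotation as ENSMUST00000106892 (0.322). Ptpn7, a tyrosine phosphatase known from blood cells, had signals of 6.12 and 7.38 in siControl and of 8.42 and 10.27 in siFxr1, so like Hgf it was higher in siFxr1 and higher in experiment 2, though its other probe was not well above background on any array. The log2 fold changes of the 5 lay between 1.81 (Onecut2) and 2.67 (Slco1a5). Spint1 and Met were far less alike to Hgf, at 1.07 and 1.19. With 4 arrays in 2 conditions and 2 experiments, such a likeness is a description.

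Hgf had the largest log2 fold change of the 5 probes under the main processing and under each of 11 alternatives of scaling, background correction, filter and block. It stayed between 1.93 and 2.26 on the log2 scale under these, and between 1.44 and 3.07 when each array was left out in turn, because an array left out unbalances the experiments. The brighter Spint1 probe stayed between 1.16 and 1.28 and the other between 1.10 and 1.49, while Met stayed between 0.10 and 0.17.

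**Figure D5:**
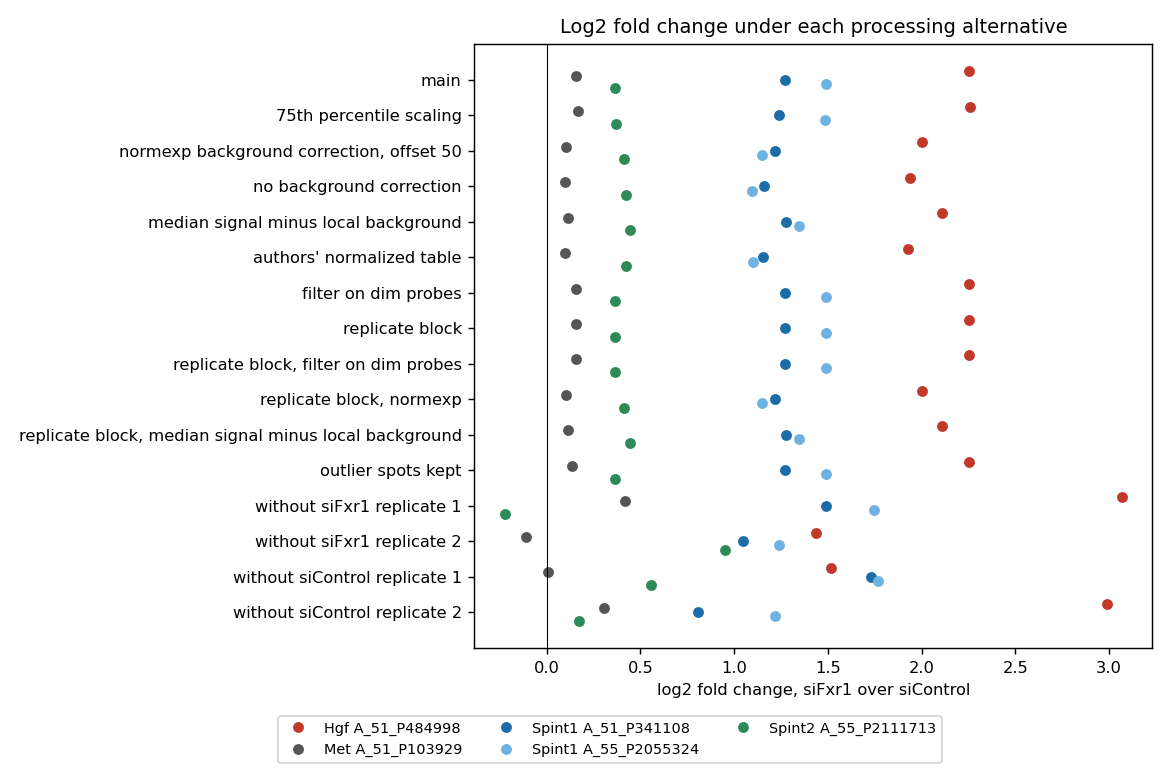
Log2 fold change of siFxr1 over siControl for the 5 probes past the filter on dim probes (colours) under the main processing and each alternative (rows). Hgf lies rightmost in all rows but the one without siControl replicate 1, where the Spint1 probes pass it (1.73 and 1.77), and Met and Spint2 cross 0 only when a siFxr1 array is left out.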

How the data were processed

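Cy3-labelled RNA of 4 samples was hybridised to Agilent mouse 8x60K arrays. The authors deposited, per the file headers, spot intensity values from Agilent Feature Extraction 10.7.3.1 that are background-corrected within the array and not normalized between arrays. A deposited table of normalized intensity values, whose 4 columns rank spots as the raw median signal does, served as an alternative. In R 4.3.3 with limma 3.58.1, log2 of the corrected intensity was quantile-normalized over 59305 spots. Spots marked as outliers (145 to 177 per array) were set to missing, which left 54 probes with a gap, and spots were averaged per probe. lmFit and eBayes were run on all probes, with condition as the only term and two-sided tests. This fit does not use the pairing of arrays by experiment, so its SE also takes in the difference between experiments. A probe was well above background where at least 0.5 of its spots carried the mark. Positions are those of the array's annotation on mm9.

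Experiment numbers pair the samples, because an experiment was run on 1 slide. Same-numbered arrays deviated together from their condition means (correlation 0.714), and 0 spots held identical values in any pair of arrays. The number of arrays limits the precision. The genes and lists were chosen with earlier results of these data known. Named genes are all probes of the 6 genes, list genes at least 2-fold in 1 direction in both experiments, the largest of each role among those well above background on all arrays, and the 5 patterns nearest to Hgf. One role with its gene is not reported here. Other genes of a role are named beyond this rule, after their values were seen. Of the marker lists, leukocyte genes were at a mean log2 signal of 6.28 to 6.36 in siControl and 6.29 to 6.36 in siFxr1. That mean joins opposite differences. Csf1r was higher in siFxr1 without overlap (0.91 and 0.78). Cd68 was lower without overlap (−0.96 and −0.87), and its signals in experiment 1 were not well above background. Endothelial genes were at 6.23 to 6.65 in siControl and 6.58 to 7.37 in siFxr1, higher in siFxr1 by 0.35 in experiment 1 and 0.72 in experiment 2. Pecam1 had the largest endothelial difference in experiment 1 (1.02), from a siControl signal not well above background, while Cdh5 was lower there (−0.37). In experiment 2 it was Tek (2.02), well above background on that siFxr1 array alone.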

Additional observations from a re-analysis of the deposited data

How the results depend on the processing

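For the condition contrast, 1 probe of the system, that of Hgf, was called instead of 0 when the replicate block was joined with a further change. Its log2 fold change and limma adjusted p were 2.25 and 0.0304 with the filter on dim probes, 2.00 and 0.0843 (B = 2.63) with normexp background correction, and 2.11 and 0.0241 with the median signal minus local background. Those fits gave a B value above 0 to 354 of 25540 probes (1.39%), and to 406 (0.729%) and 345 (0.62%) of 55681, and the normexp fit also to 2 list genes, Plau and Sdc1. The replicate block alone changed no call (limma adjusted p = 0.535 for Hgf). Between experiments, 1 probe, Hgf, was called instead of 0 in 6 settings, with a difference of experiment 1 minus experiment 2 of −1.61 with scaling to the 75th percentile (limma adjusted p = 0.0124, B = −1.118), −1.39 with normexp, −1.36 without background correction and with the authors' normalized table, −1.47 with the median signal minus local background and −1.55 with the filter. In these 6 fits 6.62% to 17.0% of the probes tested had an adjusted p under 0.05, so a call on Hgf there is a common one. The experiment difference of the dimmer Spint1 probe, 0.02, turned to −0.17 with scaling to the 75th percentile, −0.0337 with normexp, −0.0523 without background correction, −0.0151 with the median signal minus local background and −0.0489 in the authors' table. Leaving out each array gave −0.44 to 0.92 for this difference on the brighter Spint1 probe and −0.50 to 0.55 on the dimmer one, −0.11 to 0.42 for the condition difference of Met, −0.22 to 0.95 for that of Spint2, and 0.0807 to 0.239 for the median of the pathway list, highest without siControl replicate 2. The filter changes the genes tested. For the other settings the cause was not tested. All other alternatives kept the direction and the side of the threshold. Signal over background limits Hgfac, St14 and the 3′ Spint2 probe, for which no fold is given.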
